A study of Rattus norvegicus with 12 samples.

Results

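The collagen genes are the genes whose chains make up the collagens, and they were taken here as every gene on the array whose name in the scanner files reads Col, a number, the letter a and a number, whether or not the name ends in _predicted. This gave 31 genes with 51 probes, of 35608 genes and 41012 probes in all. The description of the probe used contains the word collagen for 31 of the 31 genes. The brightest probe stood for a gene, and 23 of the 31 were well above background, by the scanner software's own test, on at least 5 of the 12 arrays and entered the tests beside 20462 genes in all.

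The arrays came from the dorsal striatum of 12 male rats in 4 groups of 3. All of them, the controls included, had a unilateral lesion of the dopamine neurons, made with 9 µg of 6-OHDA in the left substantia nigra pars compacta, so no unlesioned striatum was compared here. The 6-OHDA group had the lesion alone. The DOPA group received L-DOPA at 25 mg/kg with benserazide at 12.5 mg/kg, 2 times a day for 19 days, a schedule at which the study describes dyskinesia. The HFS group received continuous high frequency stimulation of the subthalamic nucleus through an electrode on the lesioned side for 5 days (130 Hz, pulse width 80 µs, current 60 µA). The DOPA/HFS group received both, with the stimulation at the end of the L-DOPA treatment. Per the study's methods the electrodes were implanted in the HFS and DOPA/HFS rats, and no electrode is stated for the 6-OHDA and DOPA rats, so implantation and stimulation cannot be told apart. The strain and age of the rats are not given in the sources used here. Tissue punches of each rat were pooled into 1 sample, and in such tissue fewer cells of a type and less RNA per cell cannot be told apart.

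Each array held 45018 spots. Of the 43379 that were not control spots, 50.5% to 63.2% were well above background. The array of DOPA/HFS replicate 3 had 4175 outlier spots where no other array had more than 25, and outlier spots were left out. For this reason Col4a1, Col7a1, Col22a1 and Col6a3 have no value on that array. The array of 6-OHDA replicate 2 was the highest of the 12 for 20.5% and the lowest for 20.9% of the 18351 genes with a value on every array. The defining markers of striatal projection neurons were present, with 11 of the 11 genes on the array passing the filter. The summed signal of the 10 with a value on every array lay between 208000 and 285000 on every array.

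Collagens are proteins of the extracellular matrix in which chains wind round each other in a triple helix. The fibrillar collagens (types I, II, III, V, XI and XXVII) build fibres, type IV builds the sheets of basement membranes, type VI forms beaded filaments, and the fibril-associated collagens (FACIT) sit on the surface of fibres. In the healthy brain most of the tissue holds few collagen fibres, and the collagens are found mainly in the basement membrane of vessels, in the meninges and in fibroblasts around vessels, with the choroid plexus as another site. Type V chains join type I fibres and are known to limit their width.

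Of the 31 genes, 18 were well above background on all 12 arrays. The fibrillar group held 9 genes, all of which passed the filter on dim probes, type IV held 4 with 3 passing, type VI held 3 with 2 passing, and type VII held its 1 gene, which passed. The FACIT group held 7 with 5 passing, the multiplexins (Col15a1 and Col18a1, basement membrane collagens) 2 with 2 passing, and the transmembrane collagens 2 with 1 passing. None of the 3 short chain collagens (Col8a1, Col8a2 and Col10a1) passed. Of the 8 genes that did not pass, Col4a4, Col10a1, Col12a1 and Col14a1 were above background on 0 of the 12 arrays, Col8a2 on 1, Col17a1 on 2, and Col6a3 and Col8a1 on 3 each. Levels of different genes are not set against each other here, because the brightness of a spot also depends on its probe.

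No collagen gene was called in any treatment. The limits for a call were an adjusted p (limma, Benjamini-Hochberg over all genes) below 0.1 together with a fold above 1.2 or below 0.8. Of all genes tested, 0% were called in HFS, 0.00489% in DOPA (1 gene, Igsf5, named after its value was seen) and 0% in DOPA/HFS, against 0 of the 23 collagen genes in each. The lowest adjusted p among the collagen genes was 0.998 in HFS and 1 in both L-DOPA groups. At an unadjusted limma p under 0.05, 0 collagen genes passed in HFS, where 1.21% of all genes were higher and 1.13% lower at that limit. In DOPA 1 collagen gene was higher (Col5a2) and 1 lower (Col5a3), where 1.32% of all genes were higher and 1.27% lower. In DOPA/HFS 0 passed, where 0.831% of all genes were higher and 1.93% lower. The 3 comparisons share the 6-OHDA arrays.

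The log2 fold changes of the 23 genes were small in HFS. Their median was -0.01, beside 0.01 for all genes tested, with 11 genes above zero and 12 below. In DOPA the median was -0.10, beside -0.01 for all genes, with 9 above and 14 below. In DOPA/HFS the median was 0.12, beside -0.01 for all genes, with 17 above and 6 below. The DOPA/HFS balance depended on the outlier spots, on the source of the log2 values and on 1 array. With the outlier spots kept, 10 genes lay above and 13 below with a median of -0.06. In the log2 values the authors deposited, with the same outlier spots left out, 8 lay above and 15 below with a median of -0.06. Without DOPA/HFS replicate 2, 13 lay above and 10 below with a median of 0.06. These medians describe the list and were not tested.

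**Figure D1:**
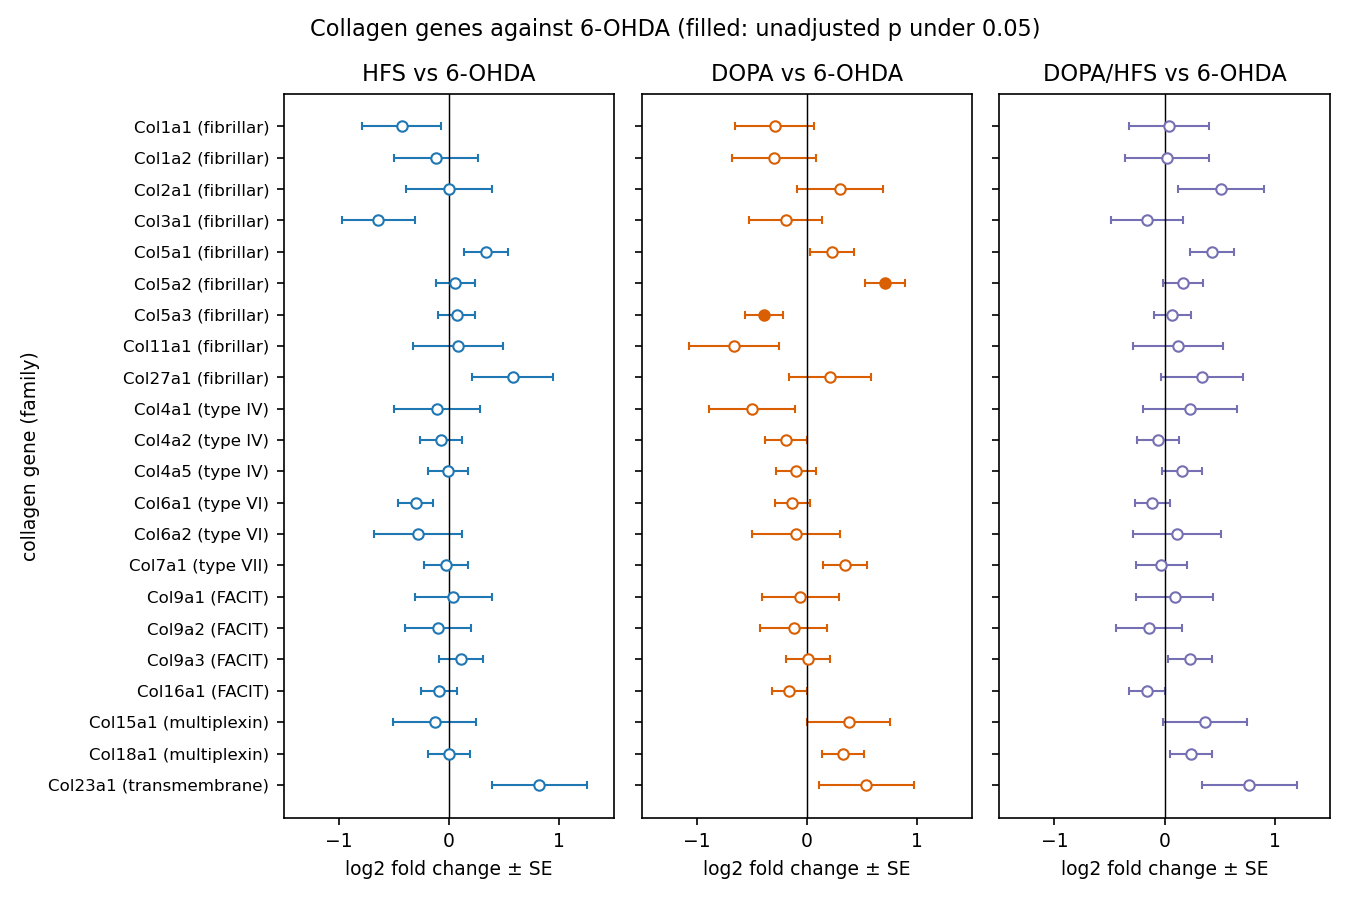
Log2 fold change (x axis) of each collagen gene that passed the filter, grouped by family (y axis), in HFS, DOPA and DOPA/HFS against 6-OHDA; bars are ± 1 SE from limma and filled points have an unadjusted p under 0.05. The filled points are Col5a2 (0.71) and Col5a3 (-0.39) in DOPA. Col22a1 is left out because no 6-OHDA array measured it above background, and Col5a1, also not above background there, is drawn from its measured means.

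The members with the lowest p belonged to type V collagen. The study counts Col5a2 and Col5a3 as altered under L-DOPA in these same arrays, so the values below are no independent evidence. It used other tests (SAM and a Wilcoxon rank test) and places both genes in an enriched pathway, ECM-receptor interaction. The limma result of no call therefore comes from an unlike test. Type V collagen has the chains Col5a1, Col5a2 and Col5a3. The promoter windows of Col5a2 and Col5a3 are shown because these genes lay on opposite sides of the control in the DOPA group. Each covers 250 bases before and 50 after the RefSeq start on the rat assembly GRCr8, on the minus strand, and the capitals mark CCAAT on either strand.
Col5a2, chr9:55090102-55090401: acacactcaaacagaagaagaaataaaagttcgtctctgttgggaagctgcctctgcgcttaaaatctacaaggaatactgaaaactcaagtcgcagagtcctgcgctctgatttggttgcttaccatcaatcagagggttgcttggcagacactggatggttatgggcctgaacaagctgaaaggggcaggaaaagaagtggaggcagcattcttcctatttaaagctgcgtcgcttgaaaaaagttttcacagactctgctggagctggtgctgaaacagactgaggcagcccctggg
Col5a3, chr8:27625899-27626198: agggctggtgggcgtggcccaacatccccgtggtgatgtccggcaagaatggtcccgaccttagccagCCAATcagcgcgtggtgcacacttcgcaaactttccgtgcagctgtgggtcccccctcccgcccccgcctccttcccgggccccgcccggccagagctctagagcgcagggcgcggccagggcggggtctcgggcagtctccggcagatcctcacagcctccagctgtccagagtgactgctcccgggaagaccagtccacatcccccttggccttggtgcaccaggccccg

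The Col5a3 window holds CCAAT 1 time, 182 bases before the start, and the Col5a2 window holds it 0 times. Both strands were also searched for TATAAA (the TATA box) and for GGGCGG (the GC box). Motifs may share letters at their ends, but none contains another. The Col5a3 window holds the GC box at 3 positions and the TATA box at 0. In the Col5a2 window none of the 3 motifs was found. The share of G and C was 47.7% in the Col5a2 window and 69% in that of Col5a3, against a median of 51.7% over all 33465 promoters of full length. The tables gave a window for 23 of the 31 collagen genes, with no entry for Col1a1, Col2a1, Col3a1, Col6a2, Col9a3, Col12a1, Col14a1 and Col22a1. CCAAT was in 7 of the 23 windows and in 37.5% of all promoters, TATAAA in 3 and in 14.2%, and GGGCGG in 13 and in 33.1%. These are matches of letters and say nothing of binding.

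Col5a2 was higher on every DOPA array than on any 6-OHDA array. It read 8.56, 8.29 and 8.5 (log2 signal, replicates 1 to 3) in 6-OHDA. It read 9.07, 9.11 and 9.30 in DOPA. The 2 groups did not overlap, and DOPA exceeded 6-OHDA by 1.63-fold, a log2 fold change of 0.71 (SE 0.18), with a limma p of 0.00208 and an adjusted p of 1 over all genes. The exact two-sided permutation p was 0.1, the smallest that 3 against 3 allows. Each replicate number stands for 1 slide that carried 1 array of each group, and within the 3 slides the difference was 0.51, 0.81 and 0.80. The other 2 Col5a2 probes gave 0.69 and 0.69. Over the 21 other settings that were run the log2 fold change lay between 0.52 and 0.76 and the lowest adjusted p was 0.834.

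In HFS, Col5a2 was near the control. It read 8.64, 8.33 and 8.55, with a log2 fold change of 0.06 (SE 0.18). In DOPA/HFS it read 8.41, 8.99 and 8.46, where replicate 2 stood near the DOPA arrays and the other two near the controls. The log2 fold change of DOPA/HFS against 6-OHDA was 0.17 (SE 0.18). The effect of stimulation with L-DOPA differed from that without it by -0.59 on the log2 scale (SE 0.25), with an unadjusted p of 0.0367 and an adjusted p of 1 in the limma interaction test. With the slide as a block the unadjusted p was 0.0551 (adjusted p 1, limma). Of all genes, 0.748% were higher and 1.24% lower in that interaction at an unadjusted p under 0.05, and Col5a2 was the 1 collagen gene there, among those lower.

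Col5a3 lay the other way in DOPA. It read 9.99, 10.31 and 9.87 in 6-OHDA and 9.40, 9.87 and 9.74 in DOPA. The highest DOPA array and the lowest 6-OHDA array were equal to 2 decimals, so the groups were barely apart. The log2 fold change was -0.39 (SE 0.17), a fold of 0.765, with a limma p of 0.0442, an adjusted p of 1 and an exact permutation p of 0.1. The slides gave -0.59, -0.45 and -0.12. Over the 21 other settings the unadjusted p lay between 0.0275 and 0.191, so the limit of 0.05 was passed under some of them only. Without 6-OHDA replicate 2 the log2 fold change was -0.26 (p 0.165, adjusted p 1, limma), and without DOPA replicate 1 it was -0.25 (p 0.191, adjusted p 1, limma). Col5a3 read 10.13, 10.25 and 10.02 in HFS and 10.26, 10.13 and 9.98 in DOPA/HFS, with log2 fold changes of 0.07 (SE 0.17) and 0.07 (SE 0.17).

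Col5a1, the third chain, was dim. It was well above background on 0 of the 3 6-OHDA arrays, on 3 of the HFS arrays, on 1 of the DOPA arrays and on 3 of the DOPA/HFS arrays. Its mean log2 signal was 5.28 for 6-OHDA, 5.62 for HFS, 5.51 for DOPA and 5.71 for DOPA/HFS. Where a group had no array above background, its level was set on each array. It was the higher of the measured signal and the lowest signal above background there. That makes a fold a lower bound only where the brighter group was above background on all its arrays. For Col5a1 the measured 6-OHDA signals were the higher, so the folds are the ratios of the measured means and not lower bounds. They were 1.26 for HFS (adjusted p 0.998 in limma) and 1.35 for DOPA/HFS (adjusted p 1, limma). No fold is given for DOPA, where 1 array measured it. The DOPA/HFS arrays, at 5.59, 5.85 and 5.71, all lay above the 6-OHDA arrays, at 5.12, 5.19 and 5.52. Col5a1 passed the filter only through the treated groups, so nothing is read from this.

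**Figure D2:**
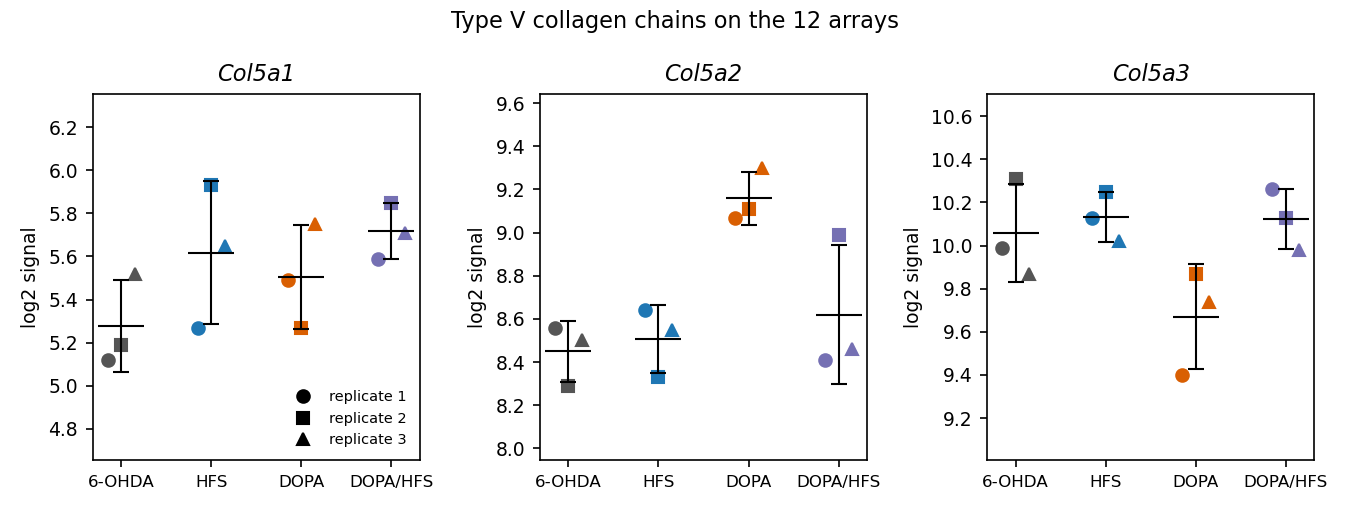
Log2 signal (y axis) of the 3 type V collagen chains on the arrays of each group (x axis), 1 point per rat with its replicate number as symbol; the long bar is the mean and the whiskers ± 1 SD, with n = 3. All Col5a2 points of the DOPA group, from 9.07 to 9.30, lie above those of the 6-OHDA group, and the Col5a3 points of the DOPA group lie at or under those of the 6-OHDA group.

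The DOPA/HFS arrays were also set against the DOPA arrays, a comparison added after the data were seen. Of all genes, 0% were called, 1.46% were higher and 2.33% lower at an unadjusted p under 0.05, and 0 collagen genes were called. Col5a3 was higher and Col5a2 lower at the unadjusted limit. Col22a1 also passed it as higher, but no DOPA array measured that gene above background, so it is not read as a difference. For Col5a2 the log2 difference was -0.54 (SE 0.18, p 0.0113, adjusted p 1, limma), lower on 3 of 3 slides. For Col5a3 it was 0.45 (SE 0.17, p 0.0224, adjusted p 1, limma), higher on 3 of 3 slides. The 2 comparisons share the DOPA arrays with those above.

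Genes whose groups do not overlap were counted with the same fold limits, among genes with a value on every array of both groups. In HFS the 1 such collagen gene was Col22a1, and 3.19% of all genes met this rule. In DOPA they were Col5a2 and Col5a3, where 3.87% of all genes met it. In DOPA/HFS the 1 gene was Col5a1, where 2.5% of all genes met it. Col22a1 and Col5a1 had no 6-OHDA array above background and passed the filter only through the groups where they were brighter, so nothing is read from their counts. In DOPA/HFS against DOPA the genes were Col5a2 and Col5a3 again, where 5.57% of all genes met it. With 2 usable DOPA/HFS arrays each, Col4a1 (higher) and Col7a1 (lower) also did not overlap there, and they are outside this count.

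In the other fibrillar collagens no difference passed an unadjusted p of 0.05. Type I collagen, the main fibre of connective tissue, has the chains Col1a1 and Col1a2, and type III, with the chain Col3a1, forms finer fibres in the walls of vessels. Col1a1 read 9.62, 8.87 and 9.1 in 6-OHDA, 8.99, 8.66 and 8.64 in HFS, 9.23, 8.42 and 9.07 in DOPA, and 8.66, 10.12 and 8.91 in DOPA/HFS. The highest array was DOPA/HFS replicate 2, and the groups overlapped. The other 2 Col1a1 probes, also above background on all 12 arrays, were not highest there. They read 8.04 and 8.53 on that array, and their highest values were 8.75 on DOPA/HFS replicate 3 and 8.93 on DOPA replicate 2. For HFS the log2 fold change of the brightest probe was -0.43, for DOPA -0.29 and for DOPA/HFS 0.04, each with an SE of 0.36. The other 2 probes gave -0.23 and -0.12 for HFS, -0.23 and 0.02 for DOPA, and 0.12 and 0.09 for DOPA/HFS.

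Col1a2 read 9.50, 9.36 and 9.41 in 6-OHDA, 9.19, 9.46 and 9.26 in HFS, 9.09, 8.95 and 9.32 in DOPA, and 8.66, 10.60 and 9.06 in DOPA/HFS. With this probe all 3 DOPA arrays lay under the 6-OHDA arrays by a log2 fold change of -0.30 (SE 0.38, adjusted p 1 in limma). That is a fold of 0.811, just outside the limit of 0.8. The second Col1a2 probe, above background on 11 arrays, gave -0.03 in DOPA. It read 6.34, 5.19 and 6.97 in 6-OHDA and 6.51, 5.62 and 6.28 in DOPA, so there the groups overlapped. The DOPA/HFS mean rested on replicate 2. With it the log2 fold change of Col1a2 was 0.02, and without it -0.56 (p 0.0115, adjusted p 0.948, limma). The second probe read 6.34 and 6.11 on DOPA/HFS replicates 1 and 3, within its 6-OHDA range, so this too was seen with 1 probe only. For Col1a1 the same step took 0.04 to -0.41 (p 0.181, adjusted p 0.948, limma).

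Col3a1 read 9.27, 8.11 and 8.79 in 6-OHDA, 7.98, 8.35 and 7.92 in HFS, 8.66, 8.35 and 8.58 in DOPA, and 7.98, 9.23 and 8.49 in DOPA/HFS. It was highest on 6-OHDA replicate 1 and next on DOPA/HFS replicate 2. Its log2 fold change in HFS, -0.64 (SE 0.33, p 0.0803, adjusted p 0.998, limma), was the lowest of the collagen genes there, with slide differences of -1.29, 0.24 and -0.87 of mixed sign.

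The markers of leptomeninges and perivascular fibroblasts, cells that make type I and III collagen, were checked on the same arrays. Of 17 on the array 14 passed the filter, and Slc22a2, Slc22a6 and Aldh1a2 did not. The summed signal of the 13 with a value on every array lay between 27100 and 30200 in 6-OHDA, 34100 and 39100 in HFS, 25100 and 28400 in DOPA, and 23200 and 41000 in DOPA/HFS. On DOPA/HFS replicate 2, where both Col1a2 probes and the brightest of the 3 Col1a1 probes were highest, this sum was also the highest of the 12 arrays, at 41000. On DOPA/HFS replicate 1, where the brighter Col1a2 probe was lowest, the sum was the lowest, at 23200. The second Col1a2 probe was lowest on 6-OHDA replicate 2, at 5.19. In HFS, where the sum was above the 6-OHDA range on 3 of 3 arrays, Col1a1 and Col3a1 had negative log2 fold changes. The sum adds linear signals, so the brightest markers weigh most, and in HFS these were Ptgds and Igf2. Igf2 read 13.44, 12.45 and 13.10 in HFS and 12.23, 12.03 and 11.83 in 6-OHDA. Of the 14 markers 11 had log2 fold changes above zero in HFS and 3 below, so the sum is not a level shared by all markers. At an unadjusted p under 0.05, 2 of the 14 markers were higher in HFS (Igf2, a growth factor, and Igfbp2, which binds it), beside 1.21% of all genes. In DOPA and DOPA/HFS 0 of the 14 were. The part of these cells in the collagen values was not tested. Of the markers of mural cells 0 of 9, and of endothelium 0 of 13, passed the unadjusted limit in any of the 3 treatments.

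**Figure D3:**
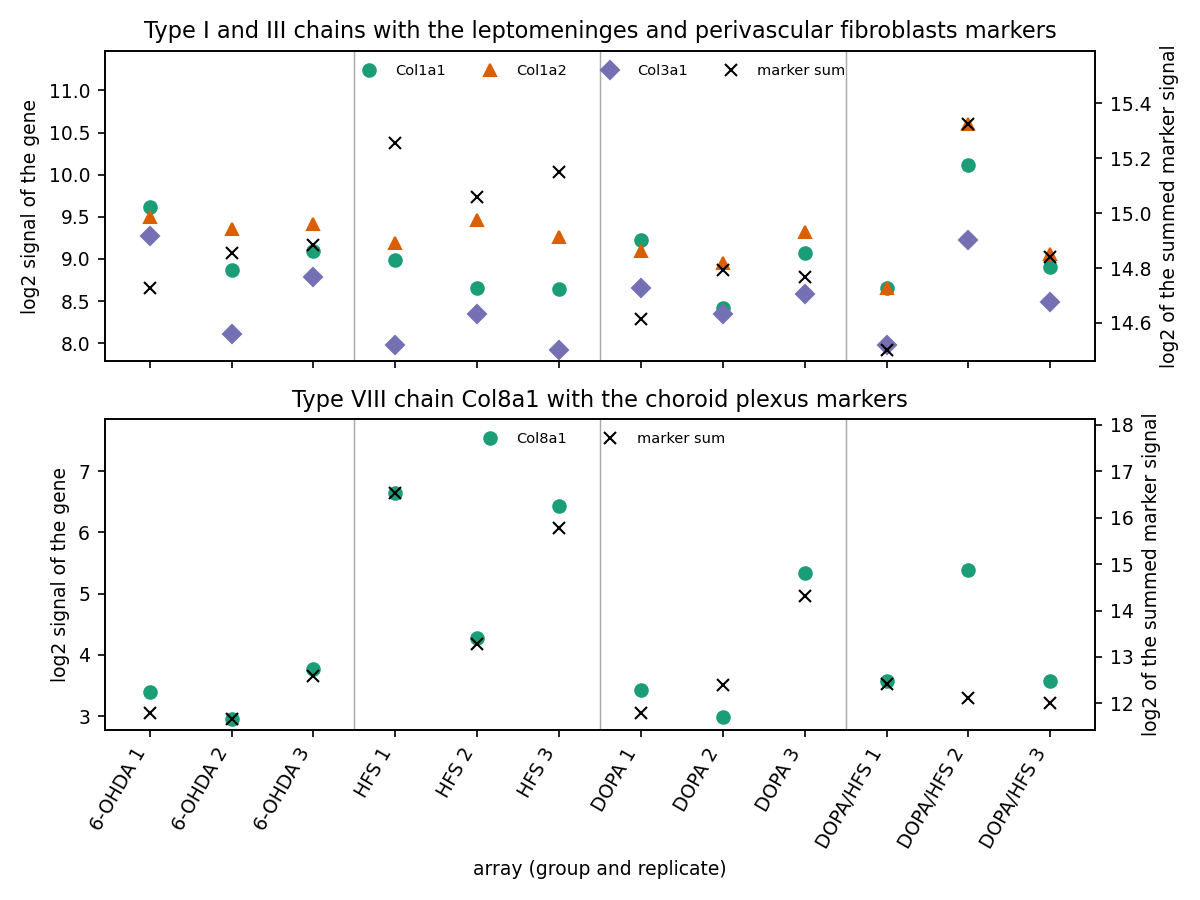
Log2 signal on the 12 arrays (x axis) of Col1a1, Col1a2 and Col3a1 (upper panel, left axis) and of Col8a1 (lower panel, left axis), with log2 of the summed signal of a marker list as crosses (right axis): leptomeninges and perivascular fibroblasts above, choroid plexus below. Each gene is drawn from its brightest probe. DOPA/HFS replicate 2 has the highest Col1a1 (10.12), the highest Col1a2 (10.60) and the highest marker sum in the upper panel, and Col8a1 is highest on HFS replicates 1 and 3, where the choroid plexus sum is highest.

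Of the remaining fibrillar genes, Col11a1, a type XI chain of cartilage and other tissues, had log2 fold changes of 0.08 for HFS, -0.66 for DOPA and 0.12 for DOPA/HFS, each with an SE of 0.41. Its 2 probes above background gave -0.66 and -0.55 in DOPA. Col27a1 had 0.58 (SE 0.37) for HFS, 0.21 for DOPA and 0.34 for DOPA/HFS, and Col2a1, the type II chain of cartilage, had 0.00, 0.30 and 0.51. The Col2a1 value of DOPA/HFS rested on replicate 3, at 7.18 against 5.6 and 5.39 on the other arrays of that group.

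Type IV collagen is the network of vessel basement membranes, built mainly from Col4a1 and Col4a2 chains in the brain. These genes lie head to head, with RefSeq starts 77 bases apart on chr16, so their promoter windows share 176 bases. The Col4a1 window is shown for this shared stretch, on the plus strand of GRCr8, with the capitals marking the bases it has in common with the Col4a2 window at chr16:84885471-84885770.
Col4a1, chr16:84885347-84885646: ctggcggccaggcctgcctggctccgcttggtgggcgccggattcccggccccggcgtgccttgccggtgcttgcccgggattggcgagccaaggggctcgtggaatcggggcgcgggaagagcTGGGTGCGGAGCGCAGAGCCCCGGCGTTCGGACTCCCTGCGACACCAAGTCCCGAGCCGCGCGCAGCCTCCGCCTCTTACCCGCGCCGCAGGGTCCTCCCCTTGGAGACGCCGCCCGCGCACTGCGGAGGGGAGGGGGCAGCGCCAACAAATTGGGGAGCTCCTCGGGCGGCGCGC

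Col4a1 read 12.05, 11.44 and 10.94 in 6-OHDA, 12.11, 10.96 and 11.02 in HFS, 10.82, 11.16 and 10.95 in DOPA, and 11.19 and 12.22 on the 2 DOPA/HFS arrays with a value. Each treated group overlapped with 6-OHDA, and 1 array lay near 12 in each group other than DOPA. For HFS the log2 fold change was -0.11 (SE 0.39), for DOPA -0.50 (SE 0.39) and for DOPA/HFS, with 2 arrays, 0.23 (SE 0.43). The second Col4a1 probe gave -0.17, -0.06 and -0.05, so the probes differed in size and, in DOPA/HFS, in sign. With the outlier spots kept, the DOPA/HFS value became 1.53 (p 0.11, adjusted p 0.846, limma), from the spot of replicate 3 that had been left out, which was also saturated, so its size is not a measured level.

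Col4a2 varied little. It read 6.61, 6.28 and 6.77 in 6-OHDA, 6.21, 6.77 and 6.46 in HFS, 6.32, 6.38 and 6.37 in DOPA, and 6.78, 6.23 and 6.46 in DOPA/HFS. Its log2 fold changes were -0.07, -0.19 and -0.06, each with an SE of 0.19, and the groups overlapped in each comparison. Col4a5, a chain of other basement membranes, had -0.01, -0.10 and 0.16, each with an SE of 0.18. Of the multiplexins, Col15a1 had -0.13, 0.38 and 0.37 (SE 0.38) and was highest on DOPA/HFS replicate 2, at 7.45. Col18a1, the parent of endostatin, had 0.00, 0.33 and 0.24 (SE 0.19), and its second probe gave -0.04, 0.20 and 0.25.

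**Figure D4:**
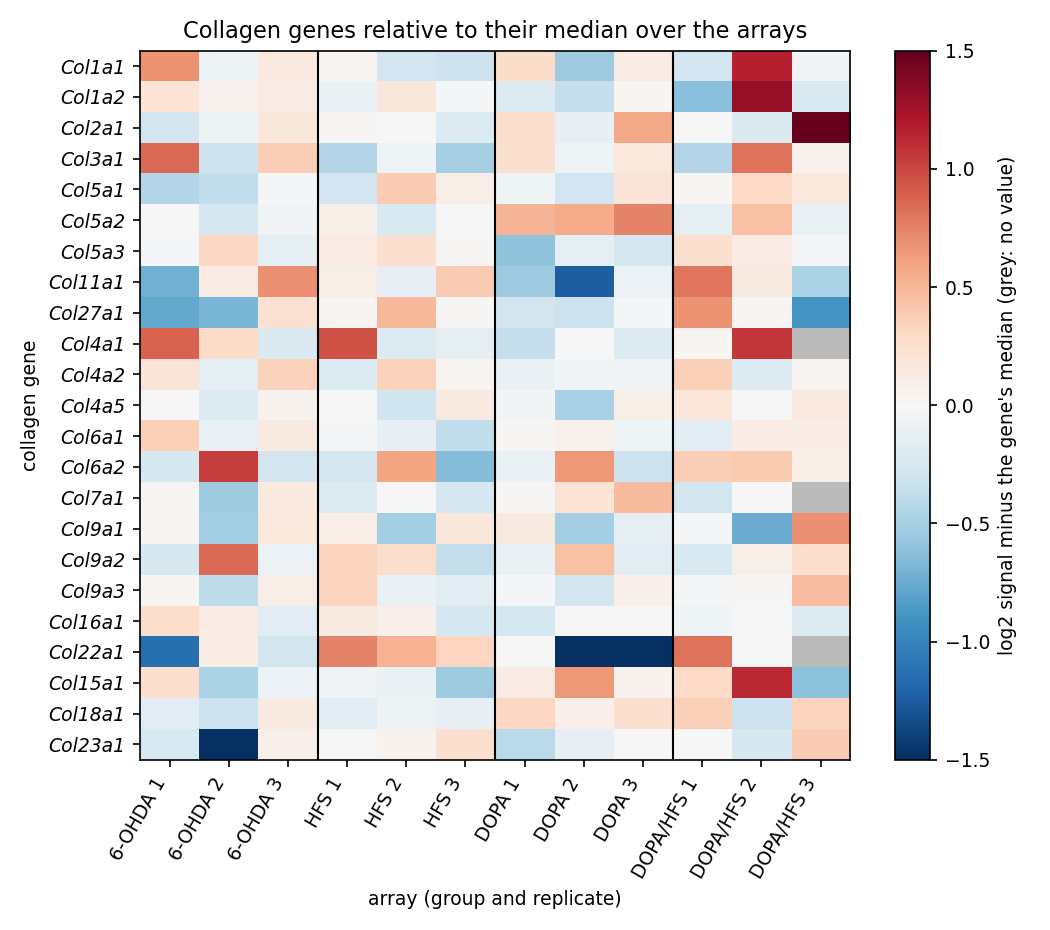
Log2 signal of the 23 collagen genes that passed the filter (rows, by family) on the 12 arrays (columns, by group), minus each gene's median over the arrays; the colour scale ends at 1.5 either way and grey marks a missing value. Col5a2 is red in all 3 DOPA columns, and DOPA/HFS replicate 2 is red for Col1a1, Col1a2, Col3a1, Col4a1 and Col15a1.

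In the type VI and VII genes that passed the filter the groups overlapped in each comparison with 6-OHDA. Col6a1 had log2 fold changes of -0.30 for HFS (p 0.0905, adjusted p 0.998, limma), -0.13 in DOPA and -0.11 in DOPA/HFS, each with an SE of 0.16. Col6a2 had -0.28, -0.10 and 0.11, with an SE of 0.40. Col7a1, the chain of anchoring fibrils, had -0.03, 0.35 and -0.03. In the FACIT group, Col9a1, Col9a2 and Col9a3, the chains of type IX collagen, lay between -0.14 and 0.23 in the 3 comparisons. Col16a1 lay between -0.16 and -0.09 with its brightest probe. Its second probe gave 0.28 for HFS, 0.08 for DOPA and -0.18 for DOPA/HFS, so the probes disagreed in sign for HFS and DOPA.

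Col22a1, a FACIT collagen of tissue junctions, was well above background on 3 of the HFS arrays and 3 of the DOPA/HFS arrays, and on 0 of the 6-OHDA and 0 of the DOPA arrays. It read 3.32, 4.56 and 4.17 in 6-OHDA, 5.19, 4.97 and 4.77 in HFS, 4.45, 2.76 and 2.66 in DOPA, and 5.27 and 4.45 on the DOPA/HFS arrays with a usable spot. The count of 3 for DOPA/HFS includes replicate 3, whose spot was an outlier and was left out of the values. The background test did not separate levels. DOPA/HFS replicate 2, at 4.45, passed it, while DOPA replicate 1, also at 4.45, and 6-OHDA replicate 2, at 4.56, did not. No difference by stimulation is read from it. No fold is given, because against the lowest signal above background on the 6-OHDA arrays the ratio fell under 1.

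Col23a1, a transmembrane collagen, read 5.62, 3.83 and 5.92 in 6-OHDA, 5.85, 5.90 and 6.08 in HFS, 5.44, 5.72 and 5.84 in DOPA, and 5.85, 5.61 and 6.22 in DOPA/HFS. A single array, 6-OHDA replicate 2, stood apart from the others. The log2 fold changes were 0.82, 0.54 and 0.77 (SE 0.43) with it. Without it they were 0.17 (p 0.423, adjusted p 1, limma), -0.10 (p 0.624, adjusted p 1, limma) and 0.12 (p 0.575, adjusted p 1, limma), so all 3 rested on that array. The second probe gave 0.18 for HFS, -0.47 for DOPA and -1.02 for DOPA/HFS, so the probes disagreed in sign in both L-DOPA groups. Among the 10 collagen genes with more than 1 probe above the filter, 6 had the same sign in all probes for HFS, 7 for DOPA and 8 for DOPA/HFS.

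Of the genes under the filter, Col8a1, a short chain collagen of vessels and the eye, had the clearest pattern. It read 3.39, 2.96 and 3.77 in 6-OHDA, 6.65, 4.28 and 6.43 in HFS, 3.42, 2.98 and 5.34 in DOPA, and 3.58, 5.38 and 3.57 in DOPA/HFS. Of the 3 arrays that measured it above background 2 were HFS arrays and 1 a DOPA/HFS array. Against the lowest signal above background on the 6-OHDA arrays, the mean of the 3 HFS arrays was 1.72-fold higher. That mean includes the HFS array that was not above background, so the fold is not a lower bound for the group. It was not tested because Col8a1 did not pass the filter. The choroid plexus markers followed a similar order. Of the 12 on the array 9 passed and 9 of 9 were higher in HFS at an unadjusted limma p under 0.05, beside 1.21% of all genes. Ttr, its defining marker, read 16.30, 11.86 and 15.28 in HFS and 5.80 to 6.59 in 6-OHDA. The summed signal of the 7 with a value on every array was 95000, 9870 and 56500 in HFS and 3270 to 6160 in 6-OHDA. It was 20300 on DOPA replicate 3, where Col8a1 was at 5.34, and 4470 on DOPA/HFS replicate 2, where Col8a1 was at 5.38. Kl, Prlr and Kcne2 did not pass. The part of choroid plexus tissue in the Col8a1 values was not tested.

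Chains of one trimer or fibre, or encoded head to head, were compared over the arrays. Col1a1 and Col3a1 belong to different trimers that can share a fibre. Of 13 pairs considered, 8 had both genes above the filter, and p-values are from permutation tests with 100000 resamples, adjusted over the 8 pairs. With the brightest probe of each gene, Col1a1 and Col3a1 had Pearson's r of 0.825 over 12 arrays (permutation p 0.00092, adjusted 0.00736) and Spearman's rho of 0.797 (permutation p 0.00308, adjusted 0.0246). With the group means removed r was 0.828, and with group and slide means removed 0.841. Without the 2 arrays farthest from the Col1a1 median, DOPA/HFS replicate 2 and 6-OHDA replicate 1, r was 0.551. The relation was not seen with the other 2 Col1a1 probes, a check chosen after seeing the data. They gave r of 0.0795 (permutation p 0.805, adjusted 0.906 over 18 probe combinations) and -0.0999 (permutation p 0.773, adjusted 0.906) with the 1 Col3a1 probe, and rho of 0.021 (permutation p 0.956, adjusted 0.975) and -0.0182 (permutation p 0.968, adjusted 0.975). It therefore rests on 1 of 3 probes and is not a property shown for the Col1a1 gene.

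Col1a1 and Col1a2, partners in the type I trimer, had r of 0.798 (permutation p 0.00518, adjusted 0.0207) and rho of 0.594 (permutation p 0.0455, adjusted 0.182). That relation rested on the same 2 arrays, without which r was 0.318, and r with group and slide means removed was 0.992. Over the 5 other combinations of the probes of both genes, r lay between -0.561 and 0.522, with adjusted permutation p from 0.253 to 0.906. Col9a1 and Col9a3 had r of 0.684 (permutation p 0.0145, adjusted 0.0388) and rho of 0.517 (permutation p 0.0881, adjusted 0.235). Its r was 0.335 once group and slide means were removed, and 0.552 (permutation p 0.063, adjusted 0.126) in the authors' log2 table. The second Col9a3 probe gave r of 0.352 (permutation p 0.262, adjusted 0.564).

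The head to head genes Col4a1 and Col4a2 showed no positive relation, with r of -0.411 over 11 arrays (permutation p 0.216, adjusted 0.345) and rho of -0.391 (permutation p 0.238, adjusted 0.381). The r without HFS replicate 1 and DOPA/HFS replicate 2 was 0.0258. The second Col4a1 probe gave r of -0.732 (permutation p 0.00924, adjusted 0.0554) and rho of -0.845 (permutation p 0.00174, adjusted 0.0256), so the probes differed in whether a negative relation passed 0.05. The type V pair Col5a1 and Col5a2 had r of 0.0958 (permutation p 0.763, adjusted 0.872), and the type VI pair Col6a1 and Col6a2 had r of -0.00154 (permutation p 0.996, adjusted 0.996). Col9a2 had r of -0.407 with Col9a1 (permutation p 0.19, adjusted 0.345) and -0.245 with Col9a3 (permutation p 0.442, adjusted 0.589). With group and slide means removed, r was -0.718 for the type IV pair, 0.0495 for the type V pair and -0.481 for the type VI pair. For Col9a2 the sign turned, to 0.602 with Col9a1 and 0.441 with Col9a3. Spearman's rho was -0.014 for the type V pair (permutation p 0.974, adjusted 0.974), -0.028 for the type VI pair (permutation p 0.94, adjusted 0.974), -0.441 for Col9a1 with Col9a2 (permutation p 0.154, adjusted 0.308) and -0.154 for Col9a2 with Col9a3 (permutation p 0.637, adjusted 0.849).

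**Figure D5:**
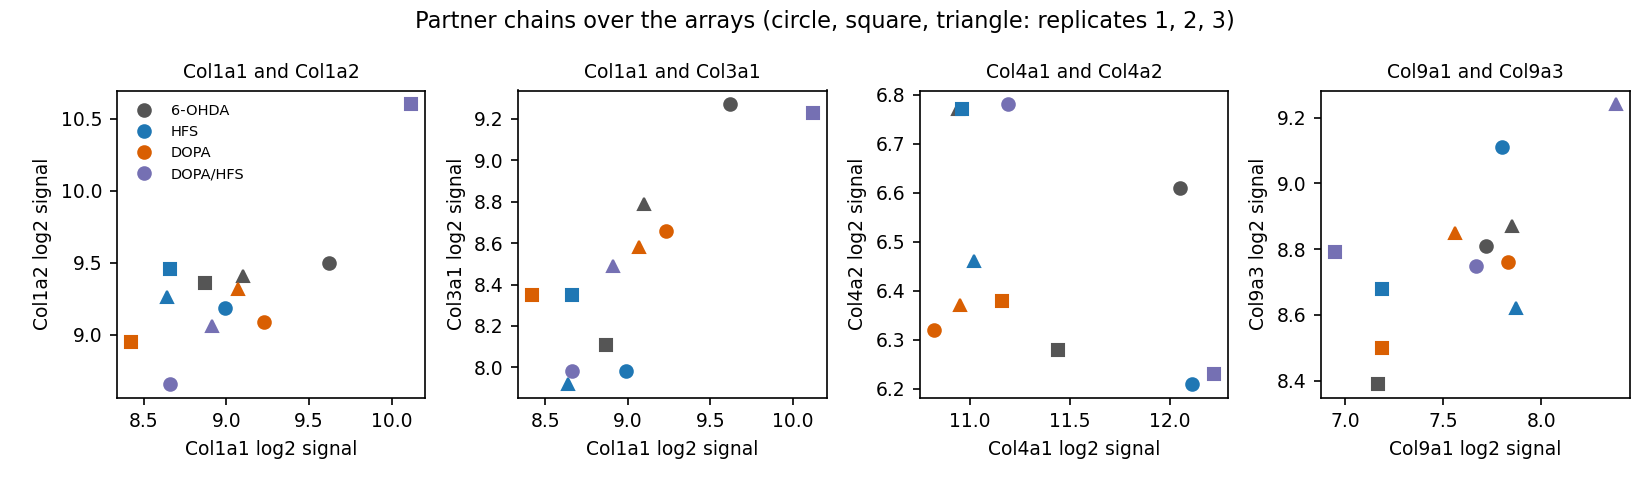
Log2 signal of 4 pairs of collagen chains against each other, 1 point per array, with colour for the group and symbol for the replicate number. Each gene is drawn from its brightest probe. For that probe Col1a1 varies with Col3a1 (r of 0.825) and, through the point at the upper right (DOPA/HFS replicate 2), with Col1a2 (r of 0.798), while Col4a1 and Col4a2 have r of -0.411.

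The genes that process, bind and break down collagen were described from 3 further lists. Of the maturation list, which holds the prolyl and lysyl hydroxylases, the chaperone Serpinh1, the propeptide proteases and the lysyl oxidases, 19 of 24 on the array passed the filter, and 0 of the 19 had an unadjusted p under 0.05 in any of the 3 treatments. In HFS 11 lay above zero and 8 below, in DOPA 12 and 7, and in DOPA/HFS 12 and 7. Of the collagen receptors 3 of 7 passed, also with 0 at that limit.

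Of the breakdown list, which holds matrix metalloproteinases, their TIMP inhibitors and cathepsin K, 10 of 14 passed. In HFS 2 of the 10 were higher at an unadjusted p under 0.05, beside 1.21% of all genes. Mmp2, a gelatinase, read 8.83, 8.13 and 8.85 in HFS and 7.93, 7.53 and 8.16 in 6-OHDA, a log2 fold change of 0.73 (SE 0.27, p 0.0214, adjusted p 0.998, limma). Mmp14, which activates Mmp2 at the cell surface, read 10.10, 10.21 and 9.95 in HFS and 8.85, 9.96 and 9.61 in 6-OHDA, a log2 fold change of 0.61 (SE 0.25, p 0.0332, adjusted p 0.998, limma). Both overlapped with the 6-OHDA arrays in part. The choroid plexus marker sum was 95000, 9870 and 56500 on the same HFS arrays, in order of replicate. The part of choroid plexus tissue in the Mmp2 and Mmp14 values was not tested. In DOPA 1 of the 10 was higher, beside 1.32% of all genes. Ctsk, which encodes cathepsin K, a protease that cuts fibrillar collagen, read 9.81, 9.75 and 9.69 in DOPA and 8.84, 8.46 and 7.80 in 6-OHDA. The groups did not overlap, which with the fold limits held for 3.87% of all genes in DOPA. The log2 fold change of Ctsk was 1.39 (SE 0.45, p 0.0108, adjusted p 1, limma), so it was not called. In DOPA/HFS Ctsk read 7.71, 9.40 and 9.63, so 2 of the 3 arrays lay near the DOPA group.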

How the data were processed

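Gene expression was measured in 12 rats on 12 one-colour Agilent arrays, 1 per rat. The intensity values are the processed signals of the scanner files the authors deposited, quantified with Agilent Feature Extraction 9.1 per the labels, background-corrected within the array and not normalized between arrays. The log2 values of the series table that the authors deposited had been quantile normalized. They served as an alternative, in which the same outlier spots were left out.

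Control spots and outlier spots were left out. Signals were taken to log2, quantile normalized and averaged over the spots of a probe. A probe was kept if 5 or more of the 12 arrays (a share of 0.4) measured it well above background, and the brightest probe stood for a gene. Of 24588 probes with a RefSeq accession, 10735 were named through the GRCr8 gene table. The 4 groups were fitted together with limma 3.58.1 (lmFit, eBayes) in R 4.3.3, with p-values adjusted by Benjamini-Hochberg over 20462 genes. The interaction was (DOPA/HFS minus DOPA) minus (HFS minus 6-OHDA). The fit was tested on simulated data.

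Replicate numbers come from the labels and equal the slide number in the file headers, where each slide held 1 array of each group. Over pairs of arrays of different groups, deviations from the group mean correlated at -0.287 to 0.476 (median 0.112) for the same number and -0.447 to 0.543 (median -0.0692) for different numbers. The position of an array on its slide went with its group, and the effects of each cannot be told apart. Precision is limited by the number of arrays, 3 in a group.

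Full values are given for members with an unadjusted p under 0.05 in a comparison or the interaction, the 2 largest log2 fold changes of each comparison, the type V chains the study lists, and the main type I, III and IV chains. Col5a1 and Col8a1 were added after their values were seen. The members and lists were chosen with earlier results of these data known. The study's RT-qPCR was not analysed here. The comparison of DOPA/HFS with DOPA was added after the data were seen. Nothing in the labels says that the rats of a group came from separate litters or days, so p-values measure the spread between these rats. Alternatives were another scaling (75th percentile), normexp (offset 50), the deposited log2 table without the outlier spots, other filters and probe rules, and outlier spots kept. The others were the replicate number as a block, only the 6 arrays compared, and leaving out each array in turn.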

Additional observations from a re-analysis of the deposited data

How the results depend on the processing

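No collagen gene was called by limma in any treatment under any scaling, background correction, filter, probe rule, threshold or left-out array that was run, nor in the interaction, which was not run under the other filters or thresholds. The Wilcoxon rank test of the methods was also run, with the fold limits and no adjustment. Its normal approximation, unlike the exact test, can reach 0.0495 at this size, but only where the groups do not overlap. It therefore repeats the count of groups that do not overlap and is no further test. It gave 1 collagen gene for HFS (Col22a1), 2 for DOPA (Col5a2 and Col5a3) and 1 for DOPA/HFS (Col5a1), beside 3.19%, 3.87% and 2.5% of all genes. Nothing is read from Col22a1 and Col5a1, as stated above. Counts at an unadjusted p under 0.05 moved by a gene or more, and the share of all genes at that limit is given in brackets. The main count in HFS, 0 (2.34%), became 1 with scaling to the 75th percentile (2.3%), 1 with only the 6 arrays compared (1.66%) and 3 of 31 with no filter (3.09%). The main count in DOPA, 2 (2.59%), became 1 in the deposited log2 table (1.55%), 1 with outlier spots kept (1.47%), 1 with only the 6 arrays compared (2.15%) and 4 of 31 with no filter (2.79%). The main count in DOPA/HFS, 0 (2.76%), became 2 of 31 with no filter (2.84%), 1 with outlier spots kept (4.36%) and 1 with the replicate block (5.11%; Col5a1, p 0.0429 against 0.052, adjusted p 0.964, limma). Leaving out each array gave 0 to 3 genes for HFS, 1 to 3 for DOPA and 0 to 2 for DOPA/HFS at that limit (1.69% to 9.09%, 2.13% to 4.38% and 1.44% to 6.46% of all genes), and medians of -0.07 to 0.04, -0.14 to -0.01 and 0.06 to 0.20. The replicate block changed no call. The DOPA/HFS median was 0.12 and became -0.06 with outlier spots kept and -0.06 in the deposited table with those spots left out. The log2 fold change of Col23a1 in DOPA reversed, from 0.54 to -0.10, without 6-OHDA replicate 2, and lay between -0.10 and 0.94 over the arrays left out. The cause was not tested in any of these. Log2 fold changes near zero, such as those of Col5a2 and Col5a3 in HFS (-0.11 to 0.14 and -0.02 to 0.20), changed sign between settings. Those of Col5a2 and Col5a3 in DOPA kept theirs under all 21. With other probes r reversed for Col1a1 with Col1a2, from 0.798 to -0.192 and -0.561, and for Col1a1 with Col3a1, from 0.825 to -0.0999. For Col9a1 and Col9a3, r was 0.637 (permutation p 0.0256, adjusted 0.0683) with scaling to the 75th percentile. Signals near background limit Col5a1, Col22a1 and the genes under the filter.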
